A study of Mus musculus with 10 samples.

Results

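A set of 10 genes that handle iron in the body were followed in primary mouse hepatocytes exposed to fatty acids with or without Neurotropin. They were Hamp, which encodes the hormone hepcidin, and Hamp2, the second hepcidin gene of the mouse, whose action on iron was not measured here. Further members were Hfe and Tfr2, which sense circulating iron, Trf, the plasma iron carrier transferrin, and Tfrc and Slc11a2, which bring iron into the cell. The rest were Fth1 and Ftl1, the heavy and light chains of the storage protein ferritin, and Slc40a1, the iron exporter ferroportin. The 10 genes were chosen by name for their function among the 18055 genes listed in any library, with their expression across the 5 groups already known. Their values are therefore given as a description, with fitted changes and standard errors but no p-values, and no support is drawn from how many of them changed.

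The cells were primary hepatocytes of C57BL/6 mice, cultured first in DMEM with 10% FBS. For experiments without siRNA, the paper describes an overnight change to serum-free DMEM before the treatments. Vehicle cells received neither fatty acid nor drug. PA cells received 200 µM palmitate, a saturated fatty acid, for 24 h, and LA cells received 12 µM linoleate, a polyunsaturated fatty acid, for 24 h. In PA+NTP and LA+NTP, the same treatments followed 1 h of pretreatment with Neurotropin (NTP) at 0.4 NU/mL, a non-protein extract of inflamed rabbit skin that is prescribed for pain. Each group had 2 bulk RNA-Seq libraries, and no group that received NTP without a fatty acid was analysed here. The labels do not say whether the 2 libraries came from separate cultures or animals, so the spread between them may be technical. Because the palmitate and linoleate doses differ, the changes of PA and LA from Vehicle are given side by side and were not compared with each other. The NTP changes under PA and under LA were compared in 1 test, which sets treatments at unlike doses against each other.

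Hepcidin is made mainly by hepatocytes and lowers plasma iron by binding ferroportin and sending it for degradation. Its transcription is raised by the BMP and SMAD pathway, which responds to iron through HFE, transferrin receptor 2 and hemojuvelin, and by IL-6 acting through STAT3. Inside the cell, iron regulatory proteins bind a hairpin in mRNAs called the iron-responsive element. Bound in the 5′ UTR of ferritin or ferroportin mRNA the proteins block translation, and bound in the 3′ UTR of transferrin receptor mRNA they protect it from decay. RNA-Seq reads the mRNA level and not translation or protein.

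The libraries held between 13142588 and 60046937 expected counts and between 15211 and 16318 listed genes. The hepatocyte label was checked with 6 markers, which were listed in every library, with Alb at 1929 to 2818 FPKM (fragments per kilobase of transcript, scaled to the size of the library) and Cps1 low, at 1.52 to 4.61 FPKM. Summed over the list, hepatocyte markers ran from 2181 to 2413 FPKM in PA, 2650 to 2965 in PA+NTP, 3093 to 3280 in Vehicle, 3128 to 3164 in LA and 3687 to 3913 in LA+NTP. Of 7 erythroid markers, 5 were not listed in any library and the other 2 summed to at most 0.90 FPKM. Among 9 Kupffer cell and macrophage markers, Cd68 reached 122 to 287 FPKM and Slc11a1 6.02 to 10.91 FPKM. Marco was at 0.67 and 0.58 FPKM in Vehicle, 3.95 and 2.90 in PA and 3.36 and 4.59 in PA+NTP, and below 1 in LA and LA+NTP. Cd5l went the other way in PA, at 1.16 and 1.31 FPKM against 2.84 and 2.70 in Vehicle, and reached at most 3.94. The other 5, which include Adgre1 and Clec4f, reached at most 1.12 FPKM, and the summed list ran from 133 to 137 FPKM in LA up to 278 to 304 FPKM in PA+NTP. Whether these differences play a part in the iron gene values was not tested, and in bulk RNA a change in the number of a cell type cannot be told apart from a change in RNA per cell. The libraries also differed in how expression followed the GC content of a gene's exons. Spearman's rho of the centered log2 level with GC content, over genes within a library, was between -0.57 and -0.47 in the 4 PA and LA libraries and between 0.35 and 0.57 in the 6 others. The part of this trend in the results was not tested, and called changes are also given after a GC trend was removed from every library.

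In the plot of each gene by library, Fth1 and Tfrc were highest in PA, Tfr2 was lowest in PA and LA, and Slc40a1 was lowest in PA+NTP. Groups often separated: both PA libraries lay above both Vehicle libraries for 33.4% of all genes and below for 38.9%. The shares were 31.6% and 39.2% in LA against Vehicle. They were 38.2% and 29.4% in PA+NTP against PA, and 41.3% and 34.3% in LA+NTP against LA. How many genes set PA and LA together apart from all other libraries was not counted. Library order below is thus given as a description, and nothing is read from it. A gene was called where edgeR's quasi-likelihood test gave an adjusted p under 0.05 over all 14097 genes tested and the change was at least 1.5-fold. All 10 genes passed the low-count filter, Hamp2 only through the PA and LA libraries.

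**Figure D1:**
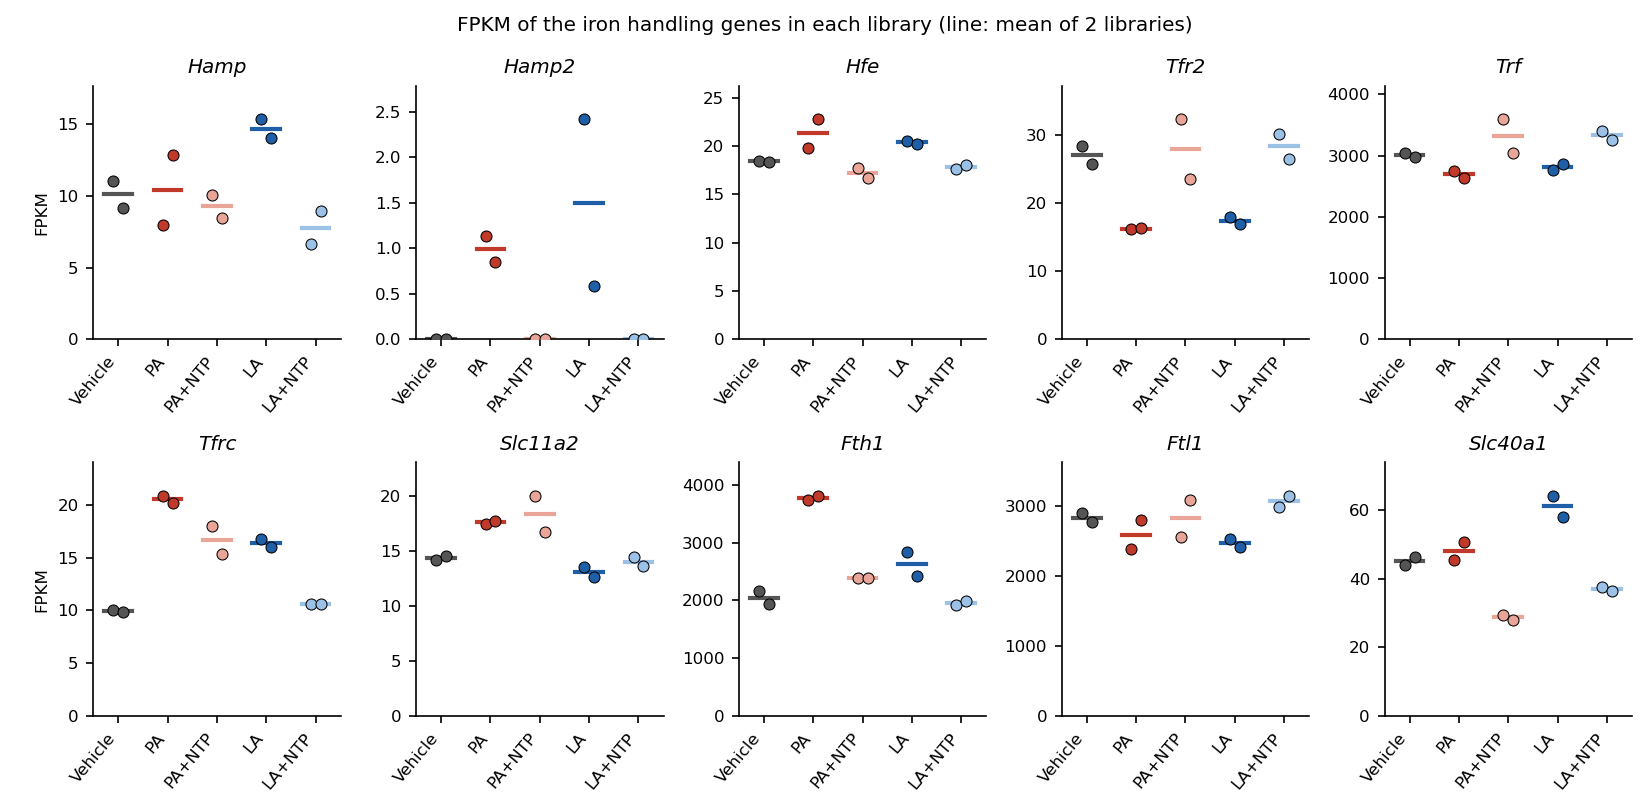
FPKM (vertical axes, linear from 0, one scale per gene) of the 10 iron handling genes in the 10 libraries, with points for libraries and a line at the mean of the 2 libraries of a group. Fth1 stands at 3733 and 3816 FPKM in PA against 1941 and 2156 in Vehicle, and Hamp2 is above 0 in the PA and LA libraries alone.

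Compared with Vehicle, PA had higher Tfrc, Fth1 and Hamp2 and lower Tfr2. These were 3 genes called higher and 1 called lower of 10, where 6.00% of all genes tested were called higher and 8.92% lower. LA had higher Tfrc and Hamp2 and lower Tfr2 than Vehicle, 2 called higher and 1 called lower, where 3.53% of all genes were called higher and 7.11% lower. PA+NTP had higher Tfr2 and lower Fth1, Slc40a1 and Hamp2 than PA, 1 called higher and 3 called lower, beside 8.74% and 5.11% of all genes. LA+NTP had higher Tfr2 and lower Hamp, Hamp2, Tfrc and Slc40a1 than LA, 1 called higher and 4 called lower, beside 11.7% and 7.57% of all genes. PA+NTP had higher Tfrc and lower Slc40a1 than Vehicle, 1 call each way, where 1.21% of all genes were called higher and 1.64% lower. Of these, only Tfrc was also called in PA against Vehicle. LA+NTP against Vehicle gave no call among the 10, where 0.0567% of all genes were called higher and 0.0355% lower. The comparisons share libraries: PA and LA are both set against the same Vehicle libraries, and each NTP group against the fatty acid libraries used there. Hamp2 is counted in each tally except those of the NTP groups against Vehicle. It passed the filter only through the libraries where it was listed, so its calls add no support. Since the genes were chosen with these contrasts known, nothing is read from the counts.

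**Figure D2:**
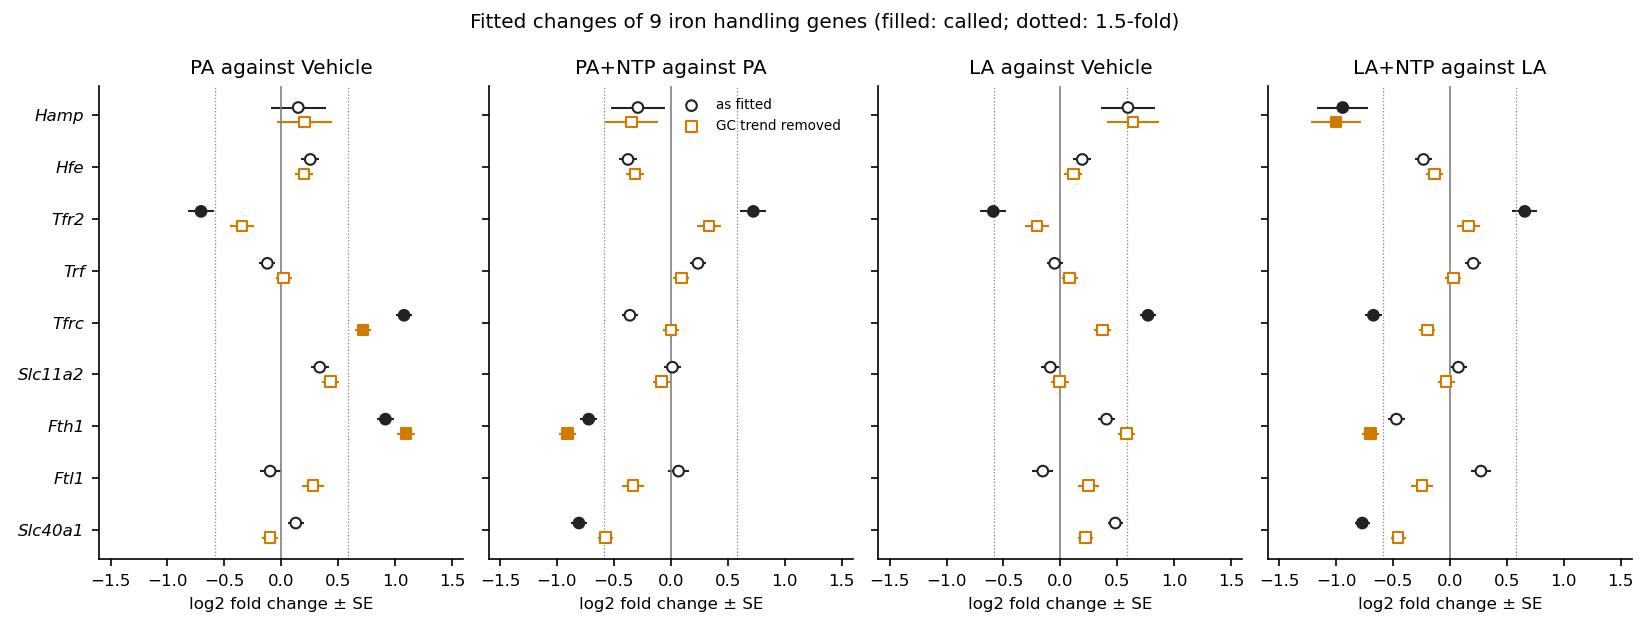
Log2 fold change ± SE (horizontal axis) of 9 iron handling genes in 4 comparisons, as fitted (black circles) and with the GC trend removed (orange squares), filled where called and with dotted lines at 1.5-fold. Fth1 moves farther from 0 once the GC trend is removed in PA against Vehicle, from 0.91 to 1.10, while Tfr2 moves from -0.70 to -0.34. Hamp2 is left out because its fitted fold change depends on the value added to its zeros.

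Hamp, the main hepcidin gene, was measured at 11.04 and 9.18 FPKM in Vehicle and at 7.97 and 12.88 FPKM in PA. It stood at 10.09 and 8.48 FPKM in PA+NTP, at 15.37 and 14.02 FPKM in LA and at 6.65 and 8.92 FPKM in LA+NTP. The PA libraries spanned the whole range of Vehicle and PA+NTP, while both LA libraries lay above every other library. The log2 fold change of LA+NTP against LA was -0.94 (SE 0.23) and was called, and it was -1.0 once the GC trend was removed. In LA against Vehicle the log2 fold change was 0.59 (SE 0.23), which was not called but lay at the limit: it was called without PA replicate 1 or 2 (0.60), without PA+NTP replicate 1 or 2 (0.61), with no low-count filter and with only the LA and Vehicle libraries in the fit (0.59). In PA against Vehicle it was 0.15 (SE 0.24) and in PA+NTP against PA it was -0.29 (SE 0.24). These 3 values were 0.64, 0.20 and -0.34 with the GC trend removed, none called. Hamp rested on few fragments, from 39.87 expected counts in PA replicate 1 to 204 in LA+NTP replicate 2. A change could thus be well above its standard error and still not be called at this depth, as in LA against Vehicle.

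Mouse carries both hepcidin genes on chromosome 7, and fragments that match both genes bear on the Hamp2 values. In GRCm38, Hamp (NCBI gene 84506) lies at chr7:30942368-30944029 and Hamp2 (NCBI gene 66438) at chr7:30922372-30924181, both on the minus strand, and each GENCODE M21 transcript used here has 3 exons. Over the protein-coding transcripts of Hamp, 128 of 380 windows of 31 bases (33.7%) also occurred in Hamp2 and in no other gene, so a fragment from a shared stretch matches both genes.

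Hamp2, the second hepcidin gene, had no row in the tables of the 6 Vehicle, PA+NTP and LA+NTP libraries, whose lowest listed value was 0.01 FPKM, and was taken as 0 there. The PA libraries held 6.13 and 13.62 expected counts, or 1.14 and 0.85 FPKM. The LA libraries held 32.03 and 5.59 expected counts, or 2.42 and 0.58 FPKM. The 4 libraries that listed Hamp2 were thus the 4 that received a fatty acid without NTP. Against a floor of 3 counts over a group at 0, Hamp2 was 5.76-fold higher in PA than in Vehicle and 10.2-fold higher in LA than in Vehicle. It was 7.90-fold higher in PA than in PA+NTP and 21.5-fold higher in LA than in LA+NTP. These values, called bounds below, allow for counting error only in the group at 0. The counts of the other group and the division of shared fragments were taken as exact, so the true fold may be lower. The bounds also move with single libraries, which were left out in turn after the data had been seen. The PA over Vehicle bound was 3.39 without Vehicle replicate 1 and 2.37 without Vehicle replicate 2. The LA over Vehicle bound was 6.02 and 4.21 without those libraries and 3.59 without LA replicate 1, which held most of the LA counts. The PA over PA+NTP bound was 4.02 without PA+NTP replicate 1 and 3.88 without PA+NTP replicate 2. The LA over LA+NTP bound was 13.4 without LA+NTP replicate 1, 8.05 without LA+NTP replicate 2 and 7.55 without LA replicate 1. The edgeR call in PA against Vehicle was lost without Vehicle replicate 1, Vehicle replicate 2 or PA replicate 2, and the call in LA against Vehicle was lost without LA replicate 1. DESeq2 did not call Hamp2 in PA against Vehicle or in PA+NTP against PA. In 1 of the 4 comparisons, either LA against Vehicle or LA+NTP against LA, it gave no adjusted p, so Hamp2 had no DESeq2 call there either. No fold is given between Vehicle and the NTP groups, where neither side listed it.

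RSEM divides fragments that match both genes between them. Hamp had whole-number expected counts in the 6 libraries without a Hamp2 row, and the 2 genes had fractional counts in the 4 others. Their sum was whole in every library, at 79 and 94 in Vehicle, 46 and 205 in PA, 118 and 103 in PA+NTP, 221 and 132 in LA and 91 and 204 in LA+NTP. Hamp2 made up 13.3% and 6.64% of the sum in PA and 14.5% and 4.23% in LA. Summed to 1 gene, the hepcidin counts gave a log2 fold change of 0.75 (SE 0.23) in LA against Vehicle and -1.10 (SE 0.22) in LA+NTP against LA, both called. The sum gave 0.28 (SE 0.24) in PA against Vehicle and -0.42 (SE 0.23) in PA+NTP against PA, neither called. Of the 18055 genes, 7 (0.0388%) were listed in all 4 PA and LA libraries and in none of the 6 others, and 13 (0.0720%) showed the opposite pattern. Hamp2 was 1 of the 7.

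The promoters of the hepcidin genes are shown because both genes share most of this stretch, and run 5′ to 3′ from 150 to 31 bases before the RefSeq start (GRCm38.p6, minus strand, chr7:30944060-30944179 for Hamp and chr7:30924212-30924331 for Hamp2), with matches in capitals to GGCGCC, the core of the BMP-responsive element, and to TTCNNNGAA, the STAT element, each searched on both strands.
Hamp: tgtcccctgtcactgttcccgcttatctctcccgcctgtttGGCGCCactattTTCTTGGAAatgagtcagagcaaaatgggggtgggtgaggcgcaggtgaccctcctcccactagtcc
Hamp2: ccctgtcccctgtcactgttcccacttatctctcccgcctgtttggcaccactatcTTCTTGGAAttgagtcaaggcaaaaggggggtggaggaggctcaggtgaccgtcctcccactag
Over the 300-base promoters, 276 of 303 aligned positions were identical (91.1%). GGCGCC began 109 bases before the Hamp start, and at the aligned place Hamp2 carried the substitution G4A, counted from the first base of that core. TTCTTGGAA was present in both, 97 bases before the start of Hamp and 94 bases before that of Hamp2. Of 27025 promoters of the same length, 11.96% held GGCGCC and 8.47% held TTCNNNGAA. The RefSeq table held promoters for 7 of the 10 genes, and among the other 5 of these only Tfrc held GGCGCC and none held TTCNNNGAA. A match is a run of letters and not a measured binding site.

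The genes whose log2 level was most like that of Hamp over the 10 libraries, among 11116 genes with a mean of at least 1 FPKM, were Trim44 (Pearson r 0.94), Xpo7 (0.91), Dcdc2c (0.91), Rufy2 (0.90) and Plekhf2 (0.90). Counted the same way, those most like Tfrc were Dstn (0.98), Tmem251 (0.98), Bclaf1 (0.97), Ssr1 (0.97) and Itgav (0.97). These values describe the 5 groups as much as single libraries. All 10 genes had a GC content between 40.9% and 47.5%, and these libraries share a trend with GC content.

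Tfr2, transferrin receptor 2, followed the fatty acid groups in the opposite direction to Tfrc. It was measured at 28.38 and 25.74 FPKM in Vehicle, at 16.15 and 16.25 FPKM in PA and at 32.30 and 23.56 FPKM in PA+NTP. LA libraries held 17.92 and 16.86 FPKM and LA+NTP libraries 30.11 and 26.46 FPKM. All 4 PA and LA libraries lay below all 6 others. The log2 fold change was -0.70 (SE 0.12) in PA against Vehicle, -0.59 (SE 0.11) in LA against Vehicle, 0.73 (SE 0.11) in PA+NTP against PA and 0.66 (SE 0.11) in LA+NTP against LA, all called. Tfr2 exons have a GC content of 57.7%, and with the GC trend removed the 4 values were -0.34, -0.20, 0.34 and 0.16, none called. The call in LA against Vehicle was also lost without Vehicle replicate 1 (-0.52), LA replicate 2 (-0.54), PA replicate 1 or either PA+NTP library (-0.58). The PA+NTP call was lost without PA+NTP replicate 1 (0.50) and the LA+NTP call without LA+NTP replicate 1 (0.57).

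Hfe, which encodes the hemochromatosis protein that acts with transferrin receptors upstream of hepcidin, changed less. It was measured at 18.49 and 18.34 FPKM in Vehicle, 19.81 and 22.78 in PA, 17.71 and 16.73 in PA+NTP, 20.55 and 20.21 in LA and 17.66 and 18.02 in LA+NTP. All PA and LA libraries lay above the 6 others, but the largest log2 fold change was -0.38 (SE 0.08), in PA+NTP against PA, and no comparison passed the 1.5-fold limit. That value was -0.31 with the GC trend removed. Among the libraries, Hfe spanned 16.73 to 22.78 FPKM.

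Trf, the transferrin gene, was among the most abundant mRNAs, ranking between 6 and 15 by FPKM in each library. Vehicle held 3037 and 2971 FPKM, PA 2755 and 2638, and PA+NTP 3597 and 3035. LA held 2765 and 2857 FPKM and LA+NTP 3403 and 3262. The 4 PA and LA libraries were the lowest of the 10, yet the log2 fold changes lay between -0.12 and 0.24 in the 4 main comparisons and none was called. After the GC trend was removed they lay between 0.02 and 0.09. Over its transcripts, 70.5% of 31-base windows also occur in Gm20425 in the GENCODE annotation, while the deposited Trf counts were whole numbers in all 10 libraries.

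Iron-responsive elements are shown for the genes whose mRNAs carry a match, because uptake, storage and export genes share them. The search took a C, 5 bases, the loop CAGTGN (last base A, C or T) and 5 bases that pair with the first 5, and the loop is in capitals with 4 bases on either side of the match.
Fth1 5′ UTR, chr19:9982734-9982758, plus strand: cctgcttcaaCAGTGCttgaacgga
Ftl1 5′ UTR, chr7:45459781-45459805, minus strand: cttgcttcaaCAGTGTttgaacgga
Slc40a1 5′ UTR, chr1:45925467-45925491, minus strand: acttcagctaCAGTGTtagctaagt
Tfrc 3′ UTR, chr16:32631221-32631245, plus strand: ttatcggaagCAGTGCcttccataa
Tfrc 3′ UTR, chr16:32631600-32631624, plus strand: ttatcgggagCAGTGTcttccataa
Tfrc 3′ UTR, chr16:32631665-32631689, plus strand: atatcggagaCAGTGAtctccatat
Tfrc 3′ UTR, chr16:32631712-32631736, plus strand: ttatcgggaaCAGTGTttcccataa
Tfrc held 4 matches, Fth1, Ftl1 and Slc40a1 held 1 each, and the other 6 genes held none of this pattern. The search misses hairpins with any other stem or loop, so a gene without a match may still carry an iron-responsive element. Of 21877 protein-coding genes, 222 (1.01%) held a match in any transcript.

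Tfrc, transferrin receptor 1 and the main route of transferrin-bound iron into cells, was lowest in Vehicle. The Vehicle libraries held 10.02 and 9.88 FPKM, the PA libraries 20.91 and 20.21 FPKM and the PA+NTP libraries 18.02 and 15.32 FPKM. LA was measured at 16.81 and 16.04 FPKM, and LA+NTP at 10.65 and 10.57 FPKM. LA+NTP lay next to Vehicle, whereas PA+NTP stayed between Vehicle and PA. Tfrc rose in PA against Vehicle by a log2 fold change of 1.08 (SE 0.07) and in LA against Vehicle by 0.77 (SE 0.07). It fell in LA+NTP against LA, with a log2 fold change of -0.67 (SE 0.07), and the value in PA+NTP against PA was -0.36 (SE 0.07), which was not called. PA+NTP remained above Vehicle by 0.72 (SE 0.07).

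Tfrc exons are the most AT-rich of the 10 genes, at 39.8% GC. With the GC trend removed, PA against Vehicle was 0.72 and stayed called, and LA against Vehicle was 0.37 and was not called. LA+NTP against LA became -0.20, also not called. PA+NTP against PA became 0.00, while PA+NTP against Vehicle was unchanged at 0.72 and called. Higher Tfrc than in Vehicle was thus called in PA and PA+NTP in both fits.

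Slc11a2 encodes DMT1, which carries ferrous iron across membranes. Vehicle held 14.13 and 14.50 FPKM, PA 17.39 and 17.73, PA+NTP 20 and 16.66, LA 13.47 and 12.62 and LA+NTP 14.38 and 13.56. All 4 PA and PA+NTP libraries lay above the 6 others. The log2 fold change was 0.34 (SE 0.08) in PA against Vehicle and 0.35 (SE 0.08) in PA+NTP against Vehicle, both under the 1.5-fold limit. These values were 0.43 and 0.35 with the GC trend removed. No comparison of Slc11a2 was called.

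Fth1, the ferritin heavy chain that oxidizes iron for storage, rose in PA and was lower in PA+NTP than in PA. It was measured at 2156 and 1941 FPKM in Vehicle, at 3733 and 3816 FPKM in PA and at 2387 and 2379 FPKM in PA+NTP. LA held 2840 and 2418 FPKM and LA+NTP 1924 and 1981 FPKM. Both PA libraries lay far above the other 8, and both PA+NTP libraries lay above Vehicle and below PA. The log2 fold change was 0.91 (SE 0.08) in PA against Vehicle and -0.72 (SE 0.08) in PA+NTP against PA, both called. In LA against Vehicle it was 0.41 (SE 0.08) and in LA+NTP against LA -0.47 (SE 0.08), neither called. With the GC trend removed the 4 values were 1.10, -0.91, 0.58 and -0.70, and the last was then also called. Fth1 exons have a GC content of 53.5%, and removing the trend enlarged each of the 4 changes. Without LA replicate 2, LA+NTP against LA was -0.59 and called.

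Ftl1, the ferritin light chain, gave no call in the 4 main comparisons. Its values were 2908 and 2771 FPKM in Vehicle, 2383 and 2805 in PA, 2566 and 3090 in PA+NTP, 2533 and 2412 in LA and 2989 and 3156 in LA+NTP. The log2 fold changes lay between -0.15 and 0.27 in the 4 main comparisons with signs opposite to those of Fth1. Their signs turned with the GC trend removed, to 0.28 in PA and 0.25 in LA against Vehicle and to -0.33 and -0.24 for the NTP comparisons, the same directions as Fth1, and none was called. The ratio of Fth1 to Ftl1 in FPKM was 0.741 and 0.700 in Vehicle, 1.57 and 1.36 in PA and 0.930 and 0.770 in PA+NTP. It was 1.12 and 1.00 in LA and 0.644 and 0.628 in LA+NTP. The ratio was above 1 in the 4 PA and LA libraries, though only at 1.002 in LA replicate 2, and under 1 in the 6 others. No GC trend was removed from this ratio, and the same 4 libraries were those with a negative rho with GC content. Ftl1 has near-identical copies in the genome: 78.1% of its 31-base windows also occur in Ftl1-ps1, so its level is uncertain where fragments could be assigned to a copy, although its deposited counts were whole in 9 of 10 libraries.

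Slc40a1, ferroportin, was lower in each NTP group than in the matching fatty acid group. Once the GC trend was removed both changes kept their sign but fell under the 1.5-fold limit and were not called. It was measured at 44.02 and 46.46 FPKM in Vehicle, at 45.63 and 50.78 FPKM in PA and at 29.49 and 28.02 FPKM in PA+NTP. LA held 64.37 and 58.11 FPKM and LA+NTP 37.52 and 36.44 FPKM. The 4 NTP libraries were the lowest of the 10, and both LA libraries were the highest. The log2 fold change was -0.81 (SE 0.07) in PA+NTP against PA and -0.77 (SE 0.07) in LA+NTP against LA, both called, beside 0.13 (SE 0.07) and 0.48 (SE 0.07) in PA and LA against Vehicle, neither called. PA+NTP against Vehicle was -0.68 (SE 0.07) and called, and LA+NTP against Vehicle was -0.29 (SE 0.07) and not called. Slc40a1 exons have a GC content of 43.5%. With the GC trend removed, the NTP comparisons were -0.57 (SE 0.07) and -0.46 (SE 0.07), neither called, while PA+NTP against Vehicle was -0.67 and stayed called.

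Whether the NTP change differed between PA and LA, given at unlike doses, was tested as the difference of the 2 changes. For the 9 genes other than Hamp2 the difference lay between -0.25 (SE 0.11), for Fth1, and 0.65 (SE 0.33), for Hamp, on the log2 scale. None of the 10 genes was called, and neither was any of the 14097 genes by edgeR (0%), although 1029 had an unadjusted p under 0.05 and DESeq2 called 5.

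**Figure D3:**
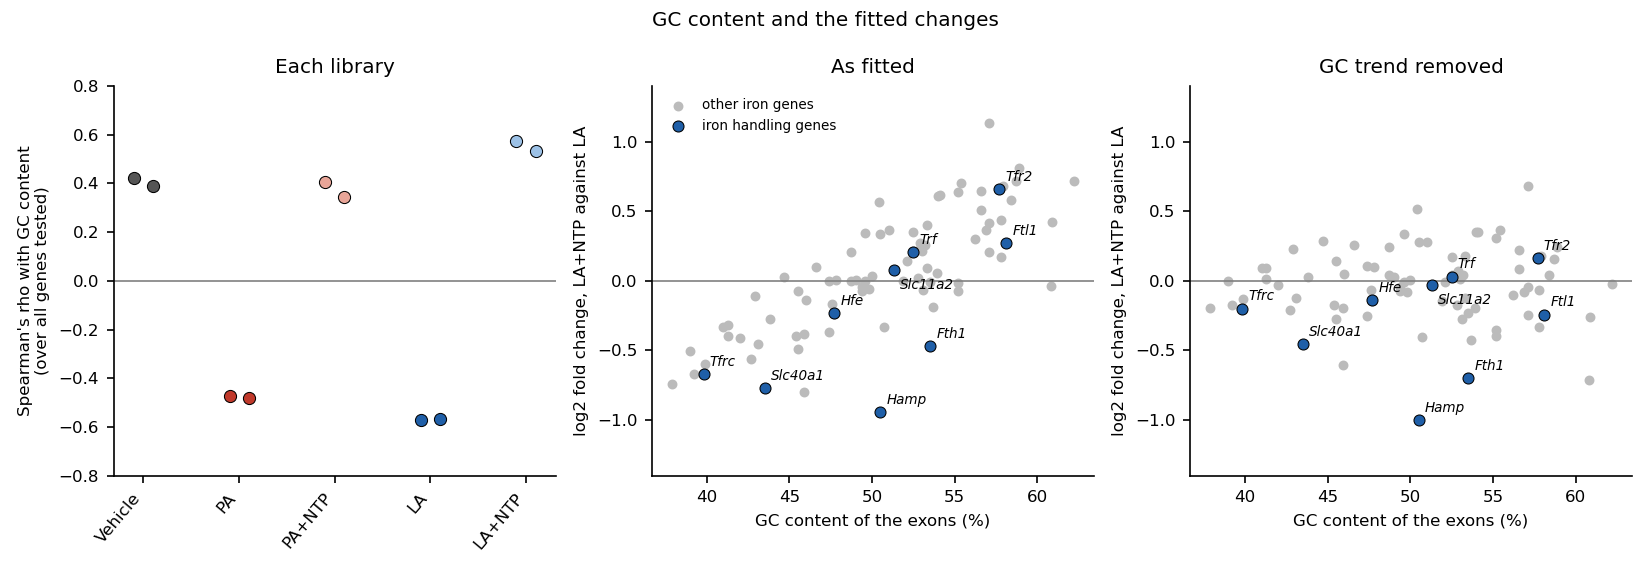
Left, Spearman's rho of each library's centered log2 level with exon GC content (2 points a group). Middle and right, log2 fold change of LA+NTP against LA against exon GC content (%) for 9 iron handling genes (blue, named) and 75 other iron genes (gray), as fitted and with the GC trend removed. Tfrc at 39.8% GC moves from -0.67 to -0.20 and Tfr2 at 57.7% GC from 0.66 to 0.16, whereas Hamp moves from -0.94 to -1.0.

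Beyond these 10 genes, 76 further genes of iron biology were taken by function in 5 lists, and 75 passed the filter. In PA against Vehicle 3 were called higher (4.0%) and 9 lower (12.0%), beside 6.00% and 8.92% of all genes tested. In LA against Vehicle they were 1 (1.33%) and 5 (6.67%), beside 3.53% and 7.11%. In PA+NTP against PA they were 6 (8.0%) and 2 (2.67%), beside 8.74% and 5.11%, and in LA+NTP against LA 8 (10.7%) and 4 (5.33%), beside 11.7% and 7.57%. The counts of the 5 lists below have the same background, and none is read as particular to its list. The median log2 fold changes of the 75 in that order were -0.01, -0.07, 0.09 and 0.02, beside medians of -0.01, -0.01, 0.01 and 0.01 over all genes tested. With the GC trend removed the calls were 1 higher and 2 lower, 0 and 0, 3 and 1, and 1 and 1, beside 3.67% and 4.75%, 0.993% and 2.24%, 3.61% and 2.54%, and 3.33% and 2.41% of all genes tested. The adjusted p-values below are from edgeR over all genes tested. These lists, too, were chosen with earlier results known, and all named genes but Blvrb were picked because they were called. Their p-values are thus a description and give no support. Some calls lost with the GC trend removed fell only under the 1.5-fold limit, as Lrp1 in PA against Vehicle (-0.56, adjusted p = 3.0e-05). Others also lost the adjusted p, as Tmprss6 there (-0.28, adjusted p = 0.0949).

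**Figure D4:**
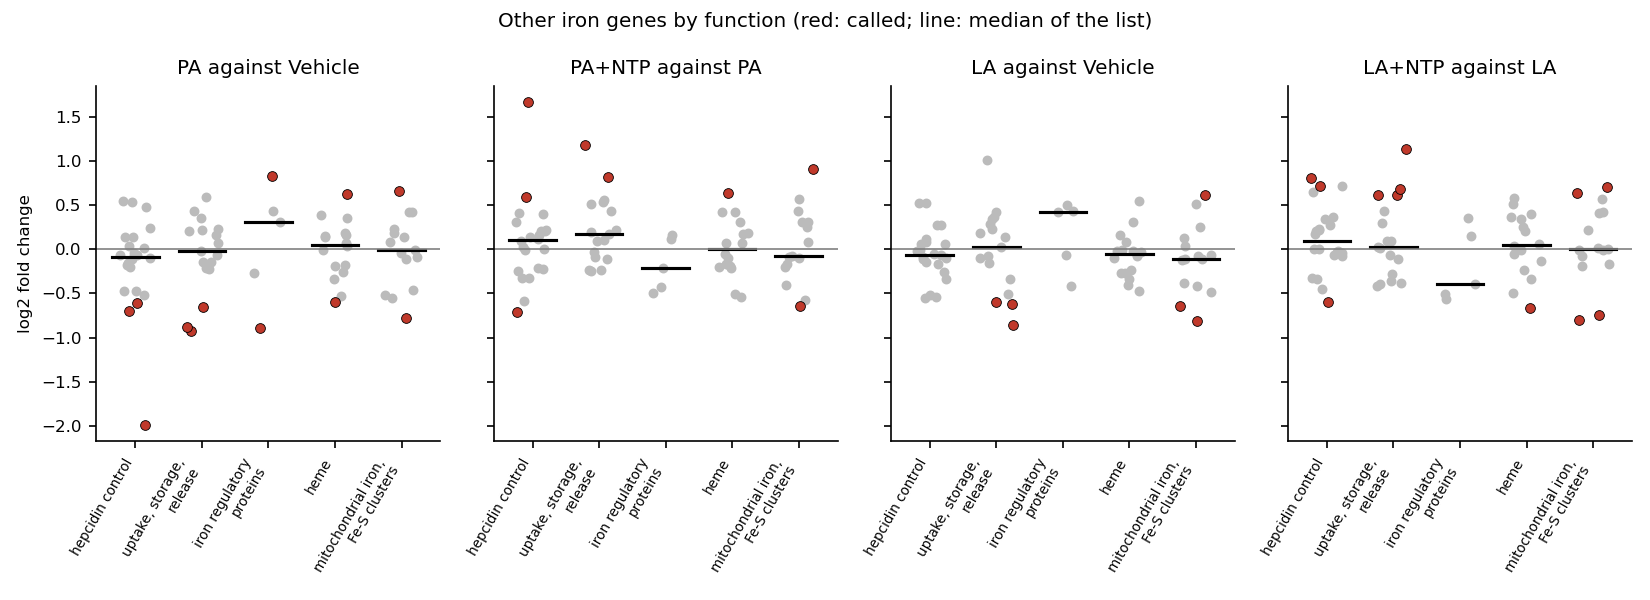
Log2 fold change (vertical axis) of 75 other iron genes in 5 lists (horizontal axis) for 4 comparisons, with called genes in red and a line at each list's median. The lowest point is Atoh8 in PA against Vehicle, at -1.99, and most genes lie within 0.5 of 0.

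Of 22 genes that control hepcidin, 3 were called lower in PA against Vehicle, where 8.92% of all genes were, and none in LA against Vehicle, where 7.11% were. In PA+NTP against PA 2 were called higher and 1 lower, and likewise in LA+NTP against LA. Tmprss6, the protease that restrains hepcidin by cleaving hemojuvelin, was measured at 24.34 and 22.71 FPKM in Vehicle and at 14.49 and 14 FPKM in PA, a log2 fold change of -0.69 (SE 0.13, adjusted p = 0.000561). It was at 26.21 and 18.26 FPKM in PA+NTP, 16.50 and 15.24 in LA and 31.05 and 26.26 in LA+NTP, and it rose in LA+NTP against LA by 0.81 (adjusted p = 8.0e-05). Its change in PA+NTP against PA, 0.59 (adjusted p = 0.00183), lay at the limit. It was not called with the replicate block (0.56), by DESeq2 or with only the groups compared (0.58), without PA+NTP replicate 1 (0.33), without PA replicate 2 (0.55) or without LA replicate 1, LA replicate 2 or LA+NTP replicate 2 (0.58 each). With the GC trend removed the 3 changes were -0.28, 0.24 and 0.14, none called. Hjv, which encodes hemojuvelin, a BMP co-receptor, was at 4.82 and 5.32 FPKM in PA and at 3.56 and 2.96 in PA+NTP, a log2 fold change of -0.71 (adjusted p = 0.000517) that was -0.97 with the GC trend removed and still called. With limma on log2(FPKM + 1) the Hjv change was -0.51 and not called. Atoh8, a transcription factor of the BMP pathway, was under 1 FPKM throughout, at 0.59 and 0.58 in Vehicle, 0.10 and 0.16 in PA and 0.44 and 0.50 in PA+NTP. It fell in PA with a log2 fold change of -1.99 (SE 0.42, adjusted p = 0.00145), and that call stayed with the GC trend removed, at -1.46. Its rise in PA+NTP against PA, 1.66 (adjusted p = 0.00486), was not called with the trend removed, at 1.11. Both Atoh8 calls were lost with limma on log2(FPKM + 1). Socs3, a feedback inhibitor of STAT3 signaling, was at 0.82 and 1.01 FPKM in LA and at 1.71 and 1.38 in LA+NTP, a log2 fold change of 0.72 (adjusted p = 0.00909) that became 0.16 and was not called with the trend removed. The Socs3 call was also lost without LA replicate 1 or LA+NTP replicate 1, at 0.56 in each case, and with limma on log2(FPKM + 1), at 0.41.

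Of 17 genes of iron uptake, storage and release, 3 were called lower in each fatty acid comparison with Vehicle, 2 were called higher in PA+NTP against PA and 4 in LA+NTP against LA. Slc46a1, a carrier of folate and heme, was at 15.82 and 16.33 FPKM in Vehicle, at 8.72 and 8.43 in PA and at 8.55 and 8.74 in LA. It was at 19.11 and 21.08 FPKM in PA+NTP and at 19.07 and 19.94 in LA+NTP. The 4 PA and LA libraries did not overlap the others. It fell in PA by 0.88 and in LA by 0.85 on the log2 scale, calls that were lost with the GC trend removed, at -0.55 and -0.50. It rose in PA+NTP against PA by 1.18 (adjusted p = 3.8e-07) and in LA+NTP against LA by 1.13 (adjusted p = 1.8e-07), and both calls stayed with the GC trend removed, at 0.83 and 0.68. Lcn2, which binds iron-laden siderophores, was at 181 and 180 FPKM in PA and at 375 and 288 in PA+NTP, a log2 fold change of 0.82 (adjusted p = 3.3e-05) that stayed called at 0.61. Its call in LA+NTP against LA, from 92.43 and 105.3 to 142 and 167 FPKM (0.61, adjusted p = 0.000290), was lost with the GC trend removed (0.35), without LA replicate 1 (0.51) and without LA+NTP replicate 2 (0.47). Lrp1, a receptor that takes up heme bound to hemopexin, was at 29.51 and 30.73 FPKM in Vehicle and at 15.39 and 15.58 in PA, a log2 fold change of -0.93 (adjusted p = 2.2e-07) that became -0.56 and was not called. Its calls in LA against Vehicle (-0.62) and in LA+NTP against LA (0.68) were also lost, at -0.23 and 0.18. Scara5, a ferritin receptor, was near 1 FPKM, at 1.19 and 1.44 in Vehicle and 1.09 and 0.65 in PA (log2 fold change -0.65, adjusted p = 0.0386), and that call too was lost with the trend removed, at -0.49. It was also lost without Vehicle replicate 1 (-0.76), Vehicle replicate 2 (-0.51) or PA replicate 2 (-0.23). The same held with limma on log2(FPKM + 1) (-0.32) or log2(FPKM + 0.1) (-0.58) and with only the groups compared (-0.66).

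Of the 5 genes listed as iron regulatory proteins and the hypoxia-inducible factors tied to them, 1 was called higher and 1 lower in PA against Vehicle and none in the other 3 comparisons. Epas1 encodes HIF-2α, whose mRNA carries an iron-responsive element, and was at 22.18 and 22.11 FPKM in Vehicle and at 10.49 and 12.72 in PA. Its log2 fold change was -0.89 (SE 0.08, adjusted p = 1.3e-06), and it stayed called at -0.74 with the GC trend removed. Hif1a was at 38.97 and 42.73 FPKM in Vehicle and at 69.46 and 72.41 in PA, a log2 fold change of 0.83 (adjusted p = 1.1e-06) that became 0.52 and was not called. PA+NTP held 13.74 and 12.75 FPKM of Epas1, near the PA level.

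Of 16 genes of heme synthesis, export and breakdown, 1 was called higher and 1 lower in PA against Vehicle, none in LA against Vehicle, 1 higher in PA+NTP against PA and 1 lower in LA+NTP against LA. Alad, which joins the first porphyrin precursors, was at 7.0 and 6.0 FPKM in Vehicle and at 3.55 and 4.62 in PA (log2 fold change -0.60, adjusted p = 0.000623). Flvcr1, a heme exporter, was at 2.40 and 2.77 FPKM in Vehicle and at 3.61 and 4.13 in PA (0.63, adjusted p = 0.000645). Ppox, which acts late in heme synthesis, was at 5.69 and 5.93 FPKM in PA and at 10.13 and 8.70 in PA+NTP (0.63, adjusted p = 0.000232), and Abcg2, a transporter that exports porphyrins, was at 68.89 and 64.67 FPKM in LA and 42.68 and 43.73 in LA+NTP (-0.67, adjusted p = 1.1e-06). None of these 4 stayed called with the GC trend removed, at -0.21 for Alad, 0.47 for Flvcr1, 0.30 for Ppox and -0.17 for Abcg2. The Alad call was lost without Vehicle replicate 1 (-0.49) or PA replicate 1 (-0.46), the Flvcr1 call without Vehicle replicate 1 (0.53) or PA replicate 2 (0.52), and the Ppox call without PA+NTP replicate 1 (0.54). With limma on log2(FPKM + 1) the Alad (-0.57) and Flvcr1 (0.44) calls were lost too. Flvcr1 was also not called with limma on log2(FPKM + 0.1), at 0.56. Blvrb, biliverdin reductase B, named here after its values were seen, was called higher in PA against Vehicle only with the trend removed, at 0.72 in place of 0.38.

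Of 15 tested genes of mitochondrial iron and iron-sulfur clusters, 1 was called higher and 1 lower in PA against Vehicle, 1 higher and 2 lower in LA against Vehicle, 1 each way in PA+NTP against PA and 2 each way in LA+NTP against LA. Hspa9, the mitochondrial chaperone of cluster transfer, was at 535 and 581 FPKM in LA and 334 and 325 in LA+NTP, a log2 fold change of -0.80 (adjusted p = 3.4e-07) that stayed called at -0.60 with the GC trend removed. Its calls in PA against Vehicle (0.66) and in PA+NTP against PA (-0.64) did not, at 0.52 and -0.50, and the latter was also lost without PA+NTP replicate 1 (-0.57). Library-size scaling and limma on log2(FPKM + 1) or log2(FPKM + 0.1) lost the latter too, at -0.58 each. Iscu, the scaffold on which clusters form, was at 51.48 and 47.55 FPKM in LA and at 79.41 and 79.27 in LA+NTP (0.64, adjusted p = 5.7e-06). That call did not hold with the trend removed, at 0.31, and was also lost without LA replicate 2 (0.58). The Iscu call in LA against Vehicle, -0.65, was lost as well, at -0.39.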

How the data were processed

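RNA-Seq of 10 libraries in 5 groups was analysed. The authors aligned reads with HISAT and Bowtie2 to the mouse genome (mm10) and quantified genes with RSEM, for which no versions were given. The deposited tables give, per library, an expected count (estimated fragments per gene, with shared fragments divided among genes) and an FPKM value for each listed gene. A gene with no row in a library entered as 0.

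Members and gene lists were chosen with earlier results of these data known. All 10 members, and of each other list the genes called in at least 1 of 4 main comparisons (at most 4, by size of change), were named. For Hamp and Tfrc the 5 genes most like each were named by Pearson's r of log2 CPM. Some items that fall under these rules are not reported here. Rounded expected counts entered edgeR 4.0.16 (R 4.3.3): TMM scaling, filterByExpr (14097 genes kept, 3958 dropped), a quasi-likelihood F test over all 10 libraries in 5 groups, and Benjamini-Hochberg adjustment over all genes tested. Each standard error given is the absolute log2 fold change divided by the square root of the F statistic. It thus restates that test and is not a spread between the 2 libraries of a group. The scripts were tested on simulated data. Alternatives were DESeq2 1.42.0, limma 3.58.1 on log2(FPKM + 1) or log2(FPKM + 0.1), other scaling and filters, a replicate block, leaving out each library, and removal of a loess trend (span 0.4) of log2 level on exon GC content, known for 17920 of 18055 genes (99.3%). Replicate libraries differed beyond sampling noise: chi-square per gene was 3.81 in Vehicle, 6.83 in PA, 16.35 in PA+NTP, 6.16 in LA and 8.92 in LA+NTP. The groups share an estimate of the spread in the fit, so standard errors of PA+NTP comparisons may be too small. Coordinates are GRCm38; transcripts are from GENCODE M21 and promoters from RefSeq. Files held no gene symbols: 17998 IDs were matched.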

Additional observations from a re-analysis of the deposited data

How the results depend on the processing

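The labels do not say that replicate numbers mark a shared culture or day, and deviations of same-numbered libraries correlated between -0.069 and 0.127 over genes. With the replicate block the counts of the 10 iron handling genes called were 4 in PA against Vehicle, 3 in LA against Vehicle, 4 in PA+NTP against PA and 5 in LA+NTP against LA, as without it. For those 4 comparisons in that order, removing the GC trend gave 3, 1, 2 and 3 calls, with or without the replicate block, where 8.41%, 3.23%, 6.15% and 5.74% of all genes tested were called without the block and 8.56%, 3.33%, 6.39% and 5.87% with it. Hamp2 was among the calls in all of these counts, and was the only call in LA against Vehicle with the GC trend removed. The adjusted p without a fold threshold gave 6, 5, 7 and 9 calls, where 45.5%, 41.3%, 44.7% and 51.5% of all genes passed, and nothing is read from these counts. Leaving out 1 library gave 3 to 4, 2 to 4, 3 to 4 and 4 to 6 calls. Among the 75 other iron genes the counts were 12, 6, 8 and 12. They became 3, 0, 4 and 2 with the GC trend removed, with or without the replicate block, and 37, 33, 38 and 41 without a fold threshold. With limma on log2(FPKM + 1) they were 7, 5, 6 and 10, beside 8.78%, 6.24%, 8.46% and 11.9% of all genes, and leaving out 1 library gave 10 to 12, 6 to 8, 8 to 11 and 10 to 13. DESeq2, library-size scaling, no filter, a mean FPKM of at least 1, limma on log2(FPKM + 0.1) and only the groups compared kept every count within 1.5 times. Of the calls of single named genes, the replicate block alone ended 1, Tmprss6 in PA+NTP against PA (0.56). No called change of a named gene turned its sign under these alternatives.

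Hamp2 falls out where a mean FPKM of at least 1 is required. The Hamp2 share of hepcidin counts averaged 9.98% in PA and 9.36% in LA, and 9.35% and 8.79% by FPKM. With 2 libraries a group and 79 to 221 hepcidin counts in 9 of the 10 libraries, depth limits what can be said of Hamp and Hamp2 more than of the other 8 genes.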
